A study of Mus musculus with 4 samples.

Results

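Homeobox genes outside the Hox clusters were examined in cells sorted from pre-tumorigenic mouse skin. They were 40 genes of 7 classes, taken by their gene symbols from a list chosen with earlier results of these data known. All 40 had a row among the 22524 genes of each count file. RNA was sequenced from 4 libraries of tdTomato-positive cells of dermal hyperplasia, 2 labelled Ezh2Y646N and 2 labelled NrasQ61K. All mice carried NrasQ61K under the tyrosinase (Tyr) promoter, a tamoxifen-inducible Cre (CreERT2) under the same promoter, and a Cre-dependent tdTomato reporter at R26R. The libraries labelled Ezh2Y646N came from mice that carried, in addition, a Cre-dependent allele of the mutant histone methyltransferase Ezh2Y646N at ColA1, and those labelled NrasQ61K came from mice without it. Cre and the oncogene were thus limited by the activity of the Tyr promoter, which is used to target melanocytes. The labels give no ages, doses or times, and do not say whether the libraries of a group came from separate animals, so the spread behind each p-value may be technical.

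Homeobox genes encode transcription factors that bind DNA through a homeodomain, a fold of helices of which the last lies in the major groove and often reads an AT-rich core. Many of them pattern the limbs, the face, the hair follicle and other skin appendages during development, and many have CG-rich promoters that Polycomb repressive complex 2, whose catalytic subunit is Ezh2, marks and silences in cells that do not use them. In skin, Msx, Dlx, Barx and Cut family members are known from the hair follicle and epidermis, Alx and Prrx genes from mesenchyme, and Meis and Pbx proteins as partners of Hox proteins.

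Total counts were 18115390 and 15083133 in the Ezh2Y646N libraries and 14808801 and 20600297 in the NrasQ61K libraries. Levels are given as CPM, counts scaled to a common library size with TMM (a trimmed mean of gene ratios that balances library composition). Fold changes are given as log2 of Ezh2Y646N over NrasQ61K, with an approximate standard error (SE) worked back from the test below. The quasi-likelihood test of edgeR was run over 14265 genes, and a gene is said to have risen or fallen where its p, adjusted by Benjamini-Hochberg over all of these, was under 0.05. Ezh2 itself was at 135 and 91.6 CPM in the Ezh2Y646N libraries and at 171 and 75.1 CPM in the NrasQ61K libraries. These counts cannot separate mutant from endogenous Ezh2 transcripts.

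The sorted material held RNA of more than melanocytes. The 10 melanocyte markers summed to 3880 and 3970 CPM in the Ezh2Y646N libraries and to 2656 and 3457 CPM in the NrasQ61K libraries. Markers of basal keratinocytes summed to 14365 and 21891 CPM in the Ezh2Y646N libraries and to 11571 and 24567 CPM in the NrasQ61K libraries, so melanocyte transcripts were present beside abundant keratinocyte transcripts. A level in such bulk material cannot separate fewer cells of a type from less RNA per cell. The levels below are therefore levels in the mixture that was sorted, and the share of each that came from melanocytes was not measured.

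Of the 40 genes, 32 were expressed, meaning that they reached 1 CPM in 2 or more libraries, against 60.7% of all genes. Expressed members covered every class: 7 of 10 in the NK-like ANTP class, 5 of 6 in the PRD class, 13 of 14 in the TALE class, 1 of 3 in the SINE class, 1 of 2 in the LIM class, and all members of the CUT and zinc finger classes. The 8 that did not reach the level were Barx1, Dlx6, Emx2, Pitx1, Six2, Six4, Irx6 and Lmx1a. Dlx6 had 0 counts in all 4 libraries, which allows a level of up to 0.172 and 0.207 CPM in the Ezh2Y646N libraries and 0.190 and 0.144 CPM in the NrasQ61K libraries (3 counts per library, counting error only). Irx6 had 3 counts in Ezh2Y646N replicate 1 and 0 in the others. Lmx1a had 0 counts in both Ezh2Y646N libraries and 2 and 13 counts in the NrasQ61K libraries, and was not tested.

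Levels between genes were compared as CPM per kilobase of annotated exon, averaged over the 4 libraries. Barx2 stood first by this mean, at 46.4 CPM per kilobase, and was followed by Irx2 at 42.3, Cux1 at 27.3 and Irx4 at 21.6. The place of Barx2 came from the NrasQ61K libraries. In the Ezh2Y646N libraries it was at 18.5 CPM per kilobase, below Irx2 at 42.8, Cux1, Irx4 and Irx5, and in the NrasQ61K libraries it was first at 74.4, above Irx2 at 41.8. Over the 4 libraries Irx1, Irx3 and Irx5 stood next, at 19.3, 18.8 and 17.4 CPM per kilobase. The Iroquois genes thus filled 5 of the first 7 places, though in the NrasQ61K libraries Msx2 took place 5 and Irx5 place 8. At the other end of the mean over the 4 libraries were Meis2 at 0.733, Prrx2 at 0.699 and Pbx4 at 0.445 CPM per kilobase. Within families, Msx2 at 14.8 stood above Msx1 at 8.74, Zhx1 at 13.2 above Zhx2 at 10.1 and Zhx3 at 4.60, and Pbx2 at 8.46 above Pbx3 at 3.09. Among the Dlx genes the order differed between the groups. Dlx5 stood above Dlx2 in the Ezh2Y646N libraries, at 4.34 and 1.82 CPM per kilobase, while in the NrasQ61K libraries Dlx5 was at 1.85 and Dlx2 at 10.98. Msx2 stood above Msx1 in each library, though the ranges of the genes over libraries overlapped. Neighbours such as Irx1 and Irx3, or Dlx1 and Dlx4, did not differ beyond their spread between libraries.

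**Figure D1:**
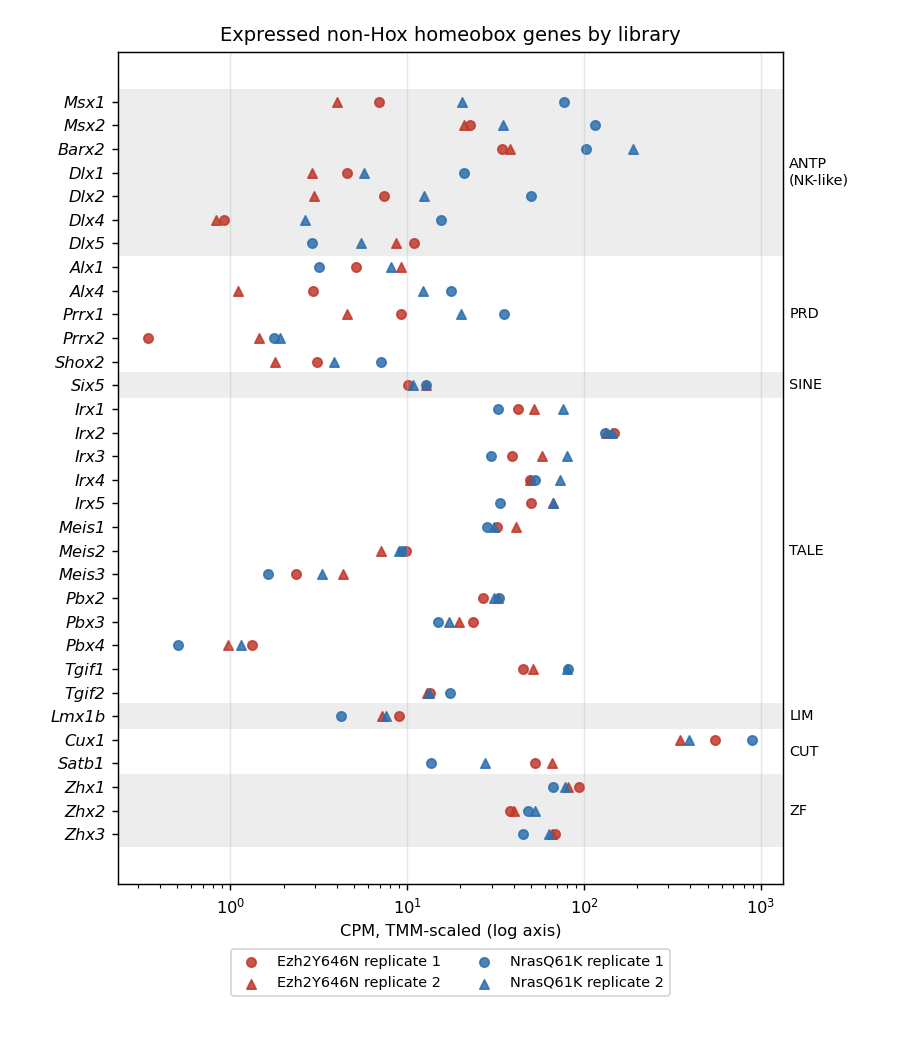
Level of the 32 expressed genes in each library, in CPM on a log axis, grouped by homeobox class; red marks the libraries labelled Ezh2Y646N and blue those labelled NrasQ61K, with circles for replicate 1 and triangles for replicate 2. Red points lie left of blue for most ANTP and PRD genes, while most TALE and zinc finger genes lie close together.

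Of the 34 members tested, 0 rose and 2 fell, Barx2 and Alx4, where 1.1% of all tested genes rose and 0.673% fell (1.77% in either direction). With DESeq2 in place of edgeR 1 was higher, Satb1, and 7 were lower, Barx2, Alx4, Msx1, Msx2, Dlx2, Dlx4 and Prrx1, against 3.71% and 2.79% of all genes. Single libraries moved the count as well, to 1 lower without Ezh2Y646N replicate 1 (0.294% of all genes), 0 lower without Ezh2Y646N replicate 2 (0.341%), and 1 higher and 8 lower without NrasQ61K replicate 2 (4.98% and 2.68%). In 11 members the p before adjustment was under 0.05, 2 higher and 9 lower in the Ezh2Y646N libraries, against 14.3% of all genes tested (7.28% higher and 7.02% lower). The groups did not overlap in 20 members, of which 6 were higher and 14 lower. The figures for all tested genes were 21.1% and 23.1% (44.2% in either direction). The median log2 fold change was -0.21 over these members and -0.04 over all tested genes. A change of at least 1 on the log2 scale was seen in 13 members, against 13.7% of all tested genes. Among the tested members, 1 (Emx2) passed the filter on low counts through the NrasQ61K libraries alone, so its direction was set by the filter.

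**Figure D2:**
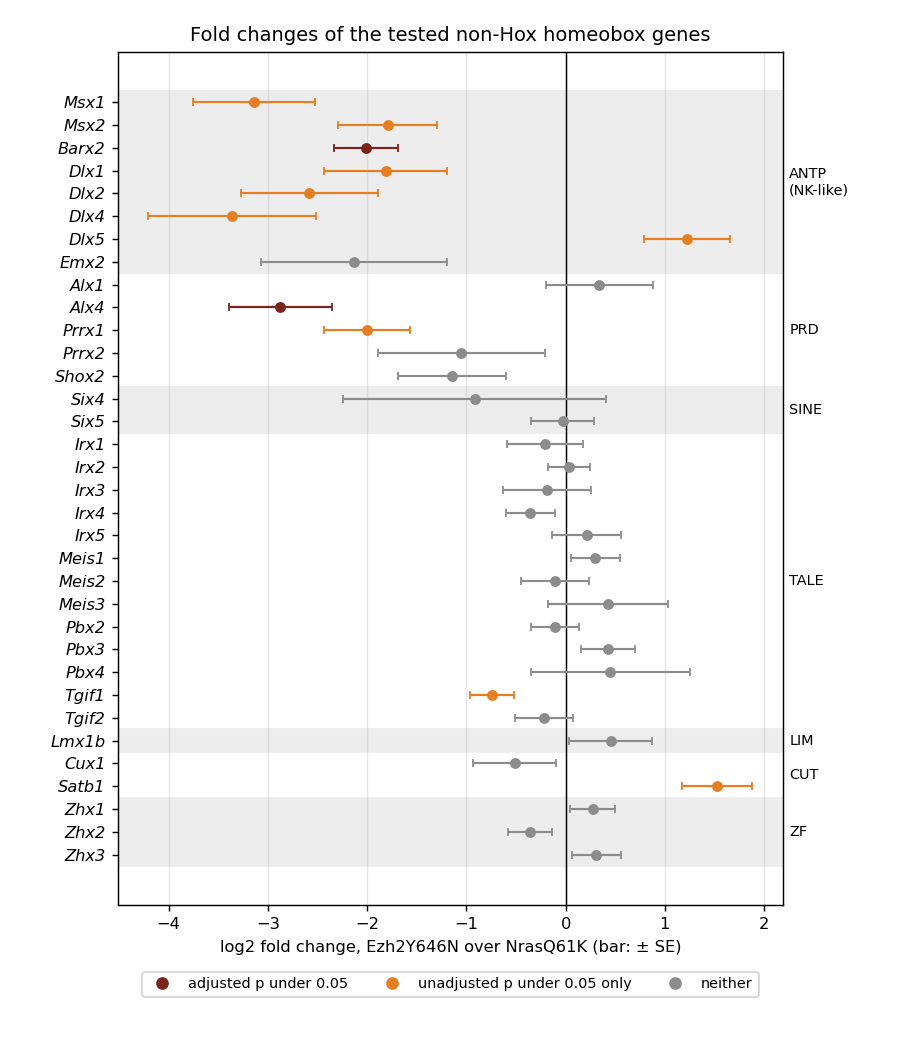
Log2 fold change of Ezh2Y646N over NrasQ61K with its SE for the 34 tested genes, grouped by class; dark red marks an adjusted p under 0.05, orange an unadjusted p under 0.05 only, and grey neither. The ANTP and PRD genes spread from -3.36 to 1.22, and the TALE genes from -0.74 to 0.45.

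Barx2, an NK-like factor known from hair follicle cycling and from muscle differentiation, fell. It was at 34.6 and 38.2 CPM in the Ezh2Y646N libraries, against 102 and 190.3 CPM in the NrasQ61K libraries. The lowest NrasQ61K library stood well above both Ezh2Y646N libraries, whose values were close to each other. Ezh2Y646N libraries averaged 36.4 ± 2.54 CPM and NrasQ61K libraries 146 ± 62.2 CPM (SD, n = 2 in each group). This was 4.02-fold lower, or -2.01 on the log2 scale with an SE of 0.32, and edgeR gave an adjusted p of 0.0343. The gene (ENSMUSG00000032033) lies on GRCm38 chromosome 9, 31846044 to 31913462, on the minus strand. Its relative Barx1, known from tooth and stomach patterning, had 4 and 0 counts in the Ezh2Y646N libraries and 2 and 0 in the NrasQ61K libraries. Leaving out Ezh2Y646N replicate 1 (edgeR's adjusted p = 0.119) or Ezh2Y646N replicate 2 (0.0617) ended the Barx2 call, while the log2 fold change stayed between -2.39 and -1.45 in all alternatives.

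Msx1 and Msx2, homeodomain repressors that respond to bone morphogenetic proteins and act in teeth, nails and the hair follicle, were lower in both Ezh2Y646N libraries without passing the threshold. Msx1 (GRCm38 chromosome 5, 37820485 to 37824583) was at 6.95 and 4.01 CPM in the Ezh2Y646N libraries, against 76.8 and 20.5 CPM in the NrasQ61K libraries. Its log2 fold change was -3.14 (SE 0.62, edgeR's adjusted p = 0.0525). Msx2 (chromosome 13, 53466884 to 53473074) was at 22.5 and 20.9 CPM in the Ezh2Y646N libraries, against 116 and 35.1 CPM in the NrasQ61K libraries (-1.79, SE 0.50, adjusted p = 0.135). For both genes the groups did not overlap, as in 44.2% of all tested genes, and NrasQ61K replicate 1 stood far above the other 3 libraries. Without that library the log2 fold change was -1.90 for Msx1 (adjusted p = 0.0345, past the threshold) and -0.69 for Msx2 (0.356). Without NrasQ61K replicate 2, which leaves the high library alone in its group, it was -3.76 for Msx1 (0.000175) and -2.37 for Msx2 (0.000276), both past the threshold. DESeq2 called both, at adjusted p of 1.01e-06 for Msx1 and 0.00449 for Msx2.

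The Dlx genes, relatives of Drosophila Distal-less that pattern limbs, branchial arches and forebrain, did not all move one way. Dlx2 was at 7.41 and 2.97 CPM in the Ezh2Y646N libraries, against 50.2 and 12.5 CPM in the NrasQ61K libraries (log2 fold change -2.58, SE 0.69, edgeR's adjusted p = 0.123). Dlx1 was at 4.60 and 2.90 CPM in the Ezh2Y646N libraries, against 20.9 and 5.71 CPM in the NrasQ61K libraries (-1.81, SE 0.62, adjusted p = 0.218). Dlx4 was at 0.920 and 0.829 CPM in the Ezh2Y646N libraries, against 15.5 and 2.64 CPM in the NrasQ61K libraries (-3.36, SE 0.84, adjusted p = 0.1055). These 3 genes shared the order of libraries seen for Msx1, with NrasQ61K replicate 1 highest and Ezh2Y646N replicate 2 lowest. Dlx5, known from bone and craniofacial development, ran the other way, at 10.9 and 8.70 CPM in the Ezh2Y646N libraries, against 2.91 and 5.47 CPM in the NrasQ61K libraries (1.22, SE 0.43, adjusted p = 0.239). The groups did not overlap in any of the 4 tested Dlx members, as was so in 44.2% of all tested genes. None of the 4 passed the threshold in edgeR. DESeq2 called Dlx2 and Dlx4 (adjusted p = 0.000893 for each). Without NrasQ61K replicate 1 the log2 fold changes were -0.60 for Dlx1, -1.26 for Dlx2 and -1.59 for Dlx4, with edgeR's adjusted p from 0.379 to 0.852. Without NrasQ61K replicate 2 they were -2.43 (adjusted p = 0.00581), -3.22 (0.0028) and -4.10 (0.001), all past the threshold.

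Some members are neighbours in the genome, and their values are given side by side. Dlx1 (chromosome 2, 71528113 to 71533981, plus strand) and Dlx2 (71543408 to 71546754, minus strand) are separated by 9.426 kb, and both were lower. Dlx6 and Dlx5 on chromosome 6 are separated by 9.236 kb, yet Dlx6 had 0 counts while Dlx5 was expressed. Of the other neighbouring members within 1 Mb, Irx1, Irx2 and Irx4 on chromosome 13 had log2 fold changes of -0.21, 0.03 and -0.36, Irx3 and Irx5 on chromosome 8 -0.19 and 0.21, Zhx2 and Zhx1 on chromosome 15 -0.36 and 0.27, and Lmx1b and Pbx3 on chromosome 2 0.45 and 0.42. None of the members of these pairs and trios passed the threshold in edgeR with all 4 libraries, while DESeq2 called Dlx2.

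Bases before RefSeq start sites are shown for 3 lower genes, Msx1, Dlx2 and Shox2, and for Irx2, whose levels hardly differed, for their content of CG, the dinucleotide whose density is a known feature of Polycomb-bound promoters. Each CG is in capitals. RefSeq's table for GRCm38.p6 held promoter windows for 27 of the 40 genes, of which the 250 bases before each start were read. There was none for Barx2 and Alx4, the 2 genes that fell, or for Dlx4. RefSeq starts did not always match the gene spans given here, and only 8 of the 36 windows lay wholly outside them. These 4 do: Msx1 (chr5:37824586-37824835, minus strand), Dlx2 (chr2:71546755-71547004, minus strand), Shox2 (chr3:66981772-66982021, minus strand) and Irx2 (chr13:72628570-72628819, plus strand), each 5′ to 3′ in the direction of transcription.
Msx1: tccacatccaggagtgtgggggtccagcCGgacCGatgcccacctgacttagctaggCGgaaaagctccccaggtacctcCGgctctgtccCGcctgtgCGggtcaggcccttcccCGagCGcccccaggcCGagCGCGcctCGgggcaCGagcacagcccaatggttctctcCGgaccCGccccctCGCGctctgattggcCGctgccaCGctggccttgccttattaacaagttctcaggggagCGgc
Dlx2: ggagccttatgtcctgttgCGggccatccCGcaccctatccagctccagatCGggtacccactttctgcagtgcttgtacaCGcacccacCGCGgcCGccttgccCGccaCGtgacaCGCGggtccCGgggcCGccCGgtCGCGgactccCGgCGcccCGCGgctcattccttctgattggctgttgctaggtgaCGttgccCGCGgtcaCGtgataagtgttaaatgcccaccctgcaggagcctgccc
Shox2: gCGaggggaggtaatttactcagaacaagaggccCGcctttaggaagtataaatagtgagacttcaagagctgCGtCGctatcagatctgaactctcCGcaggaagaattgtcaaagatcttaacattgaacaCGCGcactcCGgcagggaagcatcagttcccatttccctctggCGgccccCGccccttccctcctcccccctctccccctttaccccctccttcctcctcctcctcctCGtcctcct
Irx2: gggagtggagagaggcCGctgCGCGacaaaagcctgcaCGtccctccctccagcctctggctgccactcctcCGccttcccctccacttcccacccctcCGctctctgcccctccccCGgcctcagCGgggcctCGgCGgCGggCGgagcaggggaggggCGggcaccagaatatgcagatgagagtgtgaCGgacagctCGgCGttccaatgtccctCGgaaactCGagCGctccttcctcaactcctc
The windows of Dlx2, Msx1 and Shox2 held 24, 20 and 11 CG, against a median of 6 over all 32851 windows. That of Irx2 held 19. The other windows wholly outside the spans, of Tgif2, Lmx1b, Six5 and 1 start of Satb1, held 22, 19, 13 and 5. Polycomb binding and histone methylation were not measured here. Any link between CG count and fold change was not tested. Dlx1 held 22 and Msx2 16, in windows that lie inside the gene span, from RefSeq starts 1332 and 294 bases within it. Prrx1, which was lower too, held 4, in a window of which 60 bases lie inside the span. Of the 27 genes, 17 had a window with 16 or more CG (the 75th percentile of all windows), against 27.6% of all genes in the table. The palindrome TAATTA, a core bound by many ANTP and PRD homeodomains and searched on both strands, was in the windows of Msx2 and Prrx1 among the members, and in 4.84% of all windows.

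Alx4, a PRD-class factor of limb and craniofacial mesenchyme, was the other gene that fell. It was at 2.93 and 1.105 CPM in the Ezh2Y646N libraries, against 17.8 and 12.2 CPM in the NrasQ61K libraries. Both NrasQ61K libraries stood clear of both Ezh2Y646N libraries. Ezh2Y646N libraries averaged 2.02 ± 1.29 CPM and NrasQ61K libraries 14.99 ± 3.91 CPM (SD, n = 2 in each group). This was 7.33-fold lower, or -2.87 on the log2 scale with an SE of 0.52, at an adjusted p of 0.0442 from edgeR. The gene (ENSMUSG00000040310) lies on chromosome 2, 93642384 to 93681339, plus strand, and its span overlaps the opposite-strand gene Ext2, which had a log2 fold change of -0.11 (adjusted p = 0.917). Alx4 no longer passed when Ezh2Y646N replicate 2 was left out (adjusted p = 0.0521) or in limma voom (0.0583), and the log2 fold change was -3.75 without Ezh2Y646N replicate 1. Alx1, its relative in craniofacial development, was at 5.12 and 9.19 CPM in the Ezh2Y646N libraries and at 3.16 and 8.06 CPM in the NrasQ61K libraries, with overlapping groups (0.34, SE 0.54, adjusted p = 0.861).

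The other PRD-class genes of mesenchyme were lower without passing. Prrx1, which acts in limb and craniofacial mesenchyme, was at 9.25 and 4.56 CPM in the Ezh2Y646N libraries, against 35.5 and 20.1 CPM in the NrasQ61K libraries (-2.002, SE 0.44, edgeR's adjusted p = 0.0709). Prrx2, its close relative in fetal dermis, was at 0.345 and 1.45 CPM in the Ezh2Y646N libraries, against 1.77 and 1.92 CPM in the NrasQ61K libraries (-1.05, SE 0.84, adjusted p = 0.677). Shox2, which acts in the proximal limb and the sinoatrial node, was at 3.10 and 1.80 CPM in the Ezh2Y646N libraries, against 7.08 and 3.84 CPM in the NrasQ61K libraries (-1.14, SE 0.54, adjusted p = 0.407). In all 3 the groups did not overlap, as in 44.2% of all tested genes. Pitx1, a factor of hindlimb identity, had at most 3 counts in any library.

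**Figure D3:**
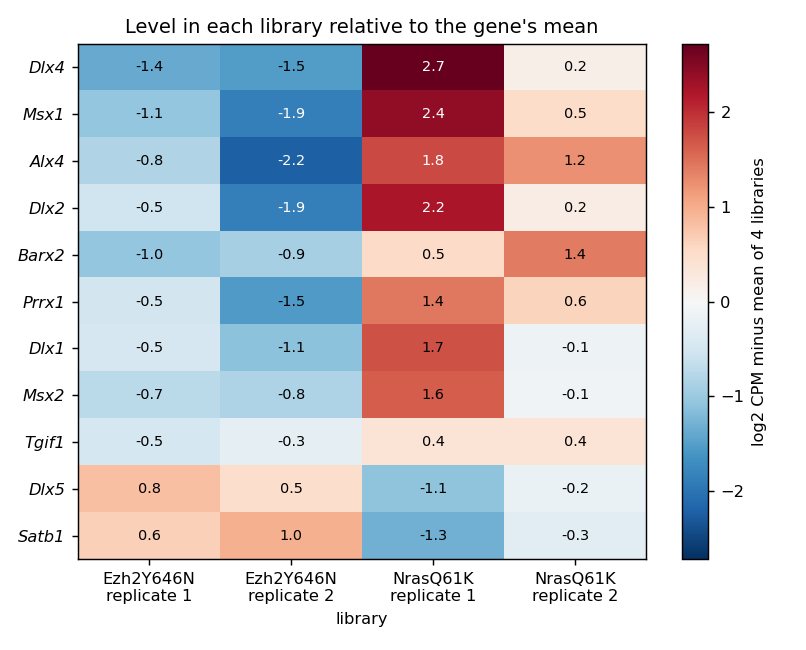
Level of the 11 genes with an unadjusted p under 0.05 in each library, as log2 CPM minus the gene's mean over the 4 libraries, in rows ordered by log2 fold change. NrasQ61K replicate 1 holds the highest value for 8 of the 9 lower genes, and NrasQ61K replicate 2 that for Barx2.

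Of the 9 lower genes with an unadjusted p under 0.05, 8 were highest in NrasQ61K replicate 1. All 9 were lower with no overlap between the groups, as were 23.1% of all tested genes. Their highest library could thus only be one of the NrasQ61K libraries. NrasQ61K replicate 1 was highest for 32.7% of all tested genes, but that share covers genes of either direction and is not a like comparison. Markers of other skin cell types differed between the same libraries. The markers of the hair matrix, shaft and inner sheath summed to 530.4 and 241.2 CPM in the Ezh2Y646N libraries, against 2999 and 1556 CPM in the NrasQ61K libraries, with 14 of 15 tested markers below 0 and 7 that fell. Dermal papilla markers summed to 238 and 181 CPM in the Ezh2Y646N libraries, against 874 and 350.3 CPM in the NrasQ61K libraries, with 15 of 15 below 0 and 2 that fell. Both sums were highest in NrasQ61K replicate 1, then in NrasQ61K replicate 2, Ezh2Y646N replicate 1 and Ezh2Y646N replicate 2, the order also seen for 8 of the 34 tested members, Msx1, Msx2, Dlx1, Dlx2, Dlx4, Alx4, Prrx1 and Shox2. The same order held for 7.78% of all tested genes, and for 33.6% of those that were lower with no overlap between the groups. Dermal fibroblast markers summed to 1030 and 2301 CPM in the Ezh2Y646N libraries, against 4634 and 2741 CPM in the NrasQ61K libraries, with 13 of 14 below 0 and 3 that fell. Macrophage and dendritic cell markers summed to 84.9 and 188 CPM in the Ezh2Y646N libraries, against 202 and 494 CPM in the NrasQ61K libraries. Of these, 9 of 9 were below 0 and none fell. NrasQ61K replicate 2 was the highest for this list, as for Barx2. The same library was highest for the basal keratinocyte, hair follicle stem and outer sheath, pericyte and smooth muscle, and lymphocyte and mast cell lists. Endothelial markers summed to 176 and 109 CPM in the Ezh2Y646N libraries, against 269.8 and 261 CPM in the NrasQ61K libraries, also with 9 of 9 below 0 and none that fell. Of the 10 melanocyte markers, 9 were above 0 and none rose. Some lists overlapped between the groups. Hair follicle stem and outer sheath markers summed to 3450 and 4593 CPM in the Ezh2Y646N libraries and to 3130 and 7445 CPM in the NrasQ61K libraries. Of these 11 markers, 6 were above 0, 5 were below, and 2 fell. Schwann and glial markers had 7 of 9 above 0 and 1 that rose. Pericyte and smooth muscle markers had 4 of 7 above 0 and 1 that fell. Only 1 adipocyte marker was tested, and it was below 0. No marker with a row in these lists was at 0 in all 4 libraries. The part of these cell types in the lower Msx, Dlx, Alx, Prrx and Barx2 levels was not tested.

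**Figure D4:**
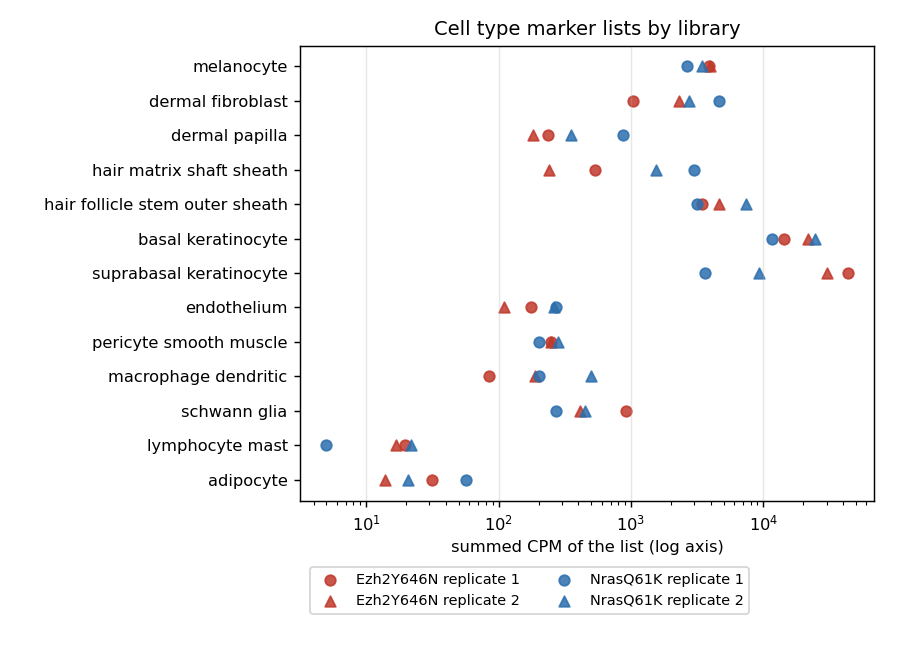
Summed CPM of each cell type marker list in each library on a log axis, with red for the libraries labelled Ezh2Y646N and blue for those labelled NrasQ61K. The hair matrix, dermal papilla, dermal fibroblast, endothelial, and macrophage and dendritic cell sums are lower, and the suprabasal keratinocyte and melanocyte sums higher, in both Ezh2Y646N libraries than in either NrasQ61K library.

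Satb1, a CUT-class chromatin organiser known from T cells and from the epidermis, had the largest positive fold change among the tested members. It was at 52.7 and 65.8 CPM in the Ezh2Y646N libraries, against 13.6 and 27.4 CPM in the NrasQ61K libraries. The groups did not overlap and averaged 59.3 ± 9.27 CPM in Ezh2Y646N and 20.5 ± 9.75 CPM in NrasQ61K libraries (SD, n = 2 in each group). The log2 fold change was 1.53 (SE 0.35, edgeR's adjusted p = 0.0854), short of the threshold. It was 2.17 and past the threshold without NrasQ61K replicate 2 (adjusted p = 0.00153), and 1.11 without NrasQ61K replicate 1 (0.0667). Suprabasal keratinocyte markers summed to 43225 and 30453 CPM in the Ezh2Y646N libraries, against 3620 and 9284 CPM in the NrasQ61K libraries, with 11 of 11 tested markers above 0, 4 that rose and none at 0 in all libraries. Lymphocyte and mast cell markers summed to 19.5 and 16.6 CPM in the Ezh2Y646N libraries and to 4.99 and 21.6 CPM in the NrasQ61K libraries. The part of either in the Satb1 level was not tested. Cux1, the class's other member and a repressor linked to cell cycle progression, had the most counts of all members, at 552 and 350 CPM in the Ezh2Y646N libraries and 896 and 389.8 CPM in the NrasQ61K libraries, with overlapping groups (-0.51, SE 0.42, adjusted p = 0.686). Its sign turned to 0.21 without NrasQ61K replicate 1.

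TALE genes, named for an insertion in a loop of the homeodomain, had small log2 fold changes. Of 13 tested, 12 had a log2 fold change within 0.5 of 0, as had 9769 of all 14265 genes tested. The median was -0.11, against -0.04 over all tested genes. The threshold was passed by 0 of the 13, where 1.77% of all tested genes passed. Irx2, the Iroquois gene of highest level per length, was at 148 and 133 CPM in the Ezh2Y646N libraries and at 131 and 143 CPM in the NrasQ61K libraries (0.03, SE 0.21, edgeR's adjusted p = 0.966). Irx1, Irx3 and Irx5 differed more between replicates than between groups. Irx3, for example, was at 39.1 and 57.9 CPM in the Ezh2Y646N libraries and at 29.95 and 80.4 CPM in the NrasQ61K libraries, where replicate 2 was the higher in each group. Irx4, known from the cardiac ventricle, was at 49.6 and 49.2 CPM in the Ezh2Y646N libraries, against 53.0 and 73.5 CPM in the NrasQ61K libraries, and did not pass (-0.36, SE 0.25, adjusted p = 0.614).

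Tgif1, a TALE-class corepressor of transforming growth factor beta signalling, was the exception among the 13. It was at 45.1 and 51.7 CPM in the Ezh2Y646N libraries, against 81.1 and 80.5 CPM in the NrasQ61K libraries. Replicates lay close together and the groups were clearly apart, with a log2 fold change of -0.74 (SE 0.22), but edgeR's adjusted p was 0.157. The value stayed between -0.86 and -0.64 in all alternatives. Its relative Tgif2 was at 13.5 and 12.98 CPM in the Ezh2Y646N libraries and at 17.5 and 13.3 CPM in the NrasQ61K libraries (-0.22, SE 0.29, adjusted p = 0.837).

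Meis and Pbx proteins bind DNA together and with Hox proteins, and none of the 6 members among their genes passed. Meis1 was at 32.2 and 41.1 CPM in the Ezh2Y646N libraries, against 28.4 and 31.1 CPM in the NrasQ61K libraries (0.30, SE 0.25, edgeR's adjusted p = 0.688). Pbx3 was at 23.5 and 19.8 CPM in the Ezh2Y646N libraries, against 15.04 and 17.2 CPM in the NrasQ61K libraries (0.42, SE 0.27, adjusted p = 0.575). In both the groups did not overlap, as in 44.2% of all tested genes. The gap was smaller than the SD in the Ezh2Y646N libraries. Pbx2, the Pbx member of highest level per length, was at 26.7 and 32.5 CPM in the Ezh2Y646N libraries and at 32.9 and 30.9 CPM in the NrasQ61K libraries, with overlapping groups (-0.11, SE 0.24). Meis2 had a log2 fold change of -0.11 (SE 0.35), Meis3 one of 0.43 (SE 0.61) and Pbx4 one of 0.45 (SE 0.80).

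The zinc finger class, repressors that carry zinc fingers beside several homeodomains, kept within 0.36 of 0 on the log2 scale. Zhx1 was at 94.3 and 80.7 CPM in the Ezh2Y646N libraries, against 67.0 and 77.7 CPM in the NrasQ61K libraries (0.27, SE 0.22, edgeR's adjusted p = 0.686). Zhx2 lay the other way, at 38.4 and 40.3 CPM in the Ezh2Y646N libraries, against 48.0 and 52.7 CPM in the NrasQ61K libraries (-0.36, SE 0.22, adjusted p = 0.566). Zhx3 had a log2 fold change of 0.31 (SE 0.25). Small gaps thus separated the groups in all 3 without a call, where 44.2% of all tested genes had no overlap.

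Among the remaining classes, Lmx1b, which sets dorsal identity in the limb, was at 8.97 and 7.25 CPM in the Ezh2Y646N libraries and at 4.23 and 7.58 CPM in the NrasQ61K libraries, with overlapping groups (0.45, SE 0.42, edgeR's adjusted p = 0.732). Six5, a SINE-class gene, was at 10.1 and 12.8 CPM in the Ezh2Y646N libraries and at 12.7 and 10.7 CPM in the NrasQ61K libraries (-0.03, SE 0.31, adjusted p = 0.979). Six4 had 11 and 0 counts in the Ezh2Y646N libraries and 14 and 8 in the NrasQ61K libraries, too few for a firm estimate (-0.92, SE 1.33). Emx2, known from forebrain and urogenital development, had 3 and 4 counts in the Ezh2Y646N libraries and 18 in each NrasQ61K library (-2.13, SE 0.93, adjusted p = 0.363). Six2, a factor of kidney progenitors, had at most 3 counts in any library.

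Other homeobox genes outside the Hox clusters were listed to set beside these, 114 in all, of which 40 were tested. None passed in edgeR or limma voom (1.77% and 1.5% of all tested genes), and DESeq2 called 4 (6.5%). In edgeR 9 had an unadjusted p under 0.05, 5 higher and 4 lower, against 14.3% of all tested genes. The median log2 fold change was -0.11. Dlx3 shares its family with members. This gene, which acts in the hair shaft and in epidermal differentiation, was at 68.0 and 44.0 CPM in the Ezh2Y646N libraries, against 357 and 97.3 CPM in the NrasQ61K libraries (-2.02, SE 0.55, edgeR's adjusted p = 0.132).

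**Figure D5:**
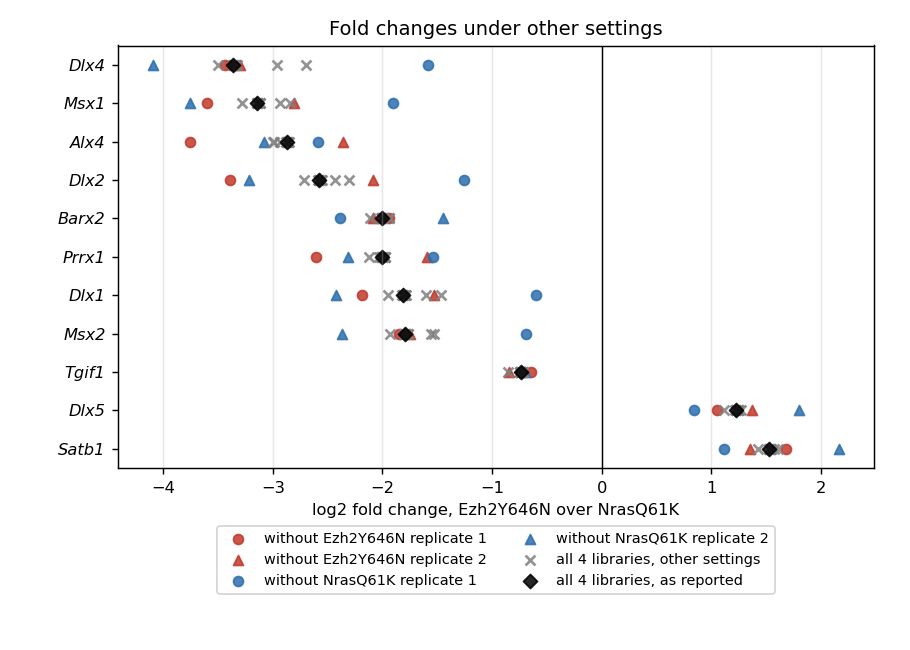
Log2 fold change of Ezh2Y646N over NrasQ61K for the 11 genes with an unadjusted p under 0.05, with all 4 libraries as reported (black diamonds), under other settings (grey crosses) and with each library left out in turn. All values keep their side of 0. For Msx1, Msx2, Dlx1, Dlx2, Dlx4, Prrx1, Dlx5 and Satb1 the value nearest to 0 is the one without NrasQ61K replicate 1. For Barx2 it is the one without NrasQ61K replicate 2, for Alx4 without Ezh2Y646N replicate 2 and for Tgif1 without Ezh2Y646N replicate 1.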

How the data were processed

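Reads per Ensembl gene were deposited as raw counts, with no normalization, for 22524 genes in each of 4 libraries. Per the submitters' processing notes, the tools were STAR 2.5.4b, featureCounts, Trimmomatic, bcl2fastq 2.19 and edgeR, and the build GRCm38. No role or order is stated for them. Nothing on annotation release, strand setting or gene filter is given in the sources used here. Reads of overlapping or antisense genes may thus have been shared, lost or counted to a member. Symbols, positions and exon lengths came from GENCODE M21 on GRCm38, in which 22291 identifiers were found. There, antisense genes without a count row overlap Barx2, Dlx1, Dlx4, Prrx1, Irx3, Meis1, Pbx3, Cux1 and Zhx2, among other members.

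The test was edgeR 4.0.16, run in R 4.3.3 (filterByExpr with a minimum of 10 counts and 15 in all, TMM, robust quasi-likelihood fit, group as the only term, 2 residual degrees of freedom), after a check on simulated data. The biological coefficient of variation was 27.9%. Each SE is the size of the log2 fold change over the square root of the F statistic of its test. CPM use TMM-scaled sizes of the filtered libraries. All 40 genes are accounted for, with each library's values for those with an unadjusted p under 0.05 and the most abundant of each family. Of the homeobox genes outside the list, Dlx3 was named as a family partner, and some others are not reported here. The members and lists were chosen with earlier results of these data known. Alternatives were DESeq2 1.42.0, limma 3.58.1 voom, other scalings and filters, a fit that was not robust, the replicate number as a block, and leaving out each library.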

Additional observations from a re-analysis of the deposited data

How the results depend on the processing

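Of the 404 alternative values of single members, 351 kept both direction and side of the threshold, 31 passed it newly, 4 lost it and 18 changed sign. The counts of genes higher and lower over all genes, 157 and 96, were 686 and 616 with no filter on low counts, 529 and 398 in DESeq2 and 710 and 627 with the replicate block, and library totals alone gave 153 lower. Members higher and lower, 0 and 2, were 1 and 8 with no filter (3.66% and 3.29% of all genes). These counts were 1 and 7 in DESeq2 (3.71% and 2.79%) and 2 and 9 with the replicate block (4.98% and 4.4%). Limma voom called 1 lower (0.449%). Other homeobox genes called, 0 in the main test, were 5 with no filter (6.95% of all genes), 4 in DESeq2 (6.5%) and 7 with the block (9.37%). The labels give no pairing beyond the number; same-numbered libraries deviated together with a correlation of 0.11 across genes over only 2 pairs. Leaving out 1 library gave 49 to 730 genes higher and 43 to 393 lower, 0 to 1 members higher and 0 to 8 lower, 0 to 6 other homeobox genes, and a median member log2 fold change of -0.28 to -0.11. The low member counts came without Ezh2Y646N replicate 1 (1 lower) and replicate 2 (0), and the high one without NrasQ61K replicate 2. That median, -0.21 as reported, was -0.32 with library totals alone, which moved the median of all genes to -0.16. Of the members that changed sign, Irx2 was -0.080 with library totals. Leave-one-out log2 fold changes of these members were -0.18 to 1.22 for Alx1, -6.43 to 0.0072 for Six4, -0.22 to 0.13 for Six5, -0.69 to 0.57 for Irx1, -0.048 to 0.14 for Irx2, -0.73 to 0.74 for Irx3, -0.20 to 0.84 for Irx5, -0.36 to 0.10 for Meis2, -0.083 to 1.06 for Meis3, -0.26 to 0.027 for Pbx2, -0.0070 to 1.21 for Pbx4 and -0.95 to 0.21 for Cux1. The count of expressed members was within 1.5 times 32 in all 3 alternatives. Where a library was left out, the lone sample was assumed to vary like the other group. The cause of these shifts was not tested.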

Other observations

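Spans of 5 members overlapped another gene with its own count row. Besides Ext2 beside Alx4, these were Rsrc1 opposite Shox2 (log2 fold change 0.05), Plcg1 opposite Zhx3 (-0.04), Gpsm3 with Pbx2 (-0.61) and Gm29394 with Zhx1 (-0.09), none past the threshold. These genes, and the 3 that follow, were chosen after their values were seen. Homeobox genes that were not members and had an unadjusted p under 0.05 included Pou2f3, a factor of suprabasal keratinocytes and tuft cells, at 150.5 and 174 CPM in the Ezh2Y646N libraries, against 39.5 and 74.9 CPM in the NrasQ61K libraries (log2 fold change 1.504, SE 0.32, edgeR's adjusted p = 0.0678). Gbx1 and Gbx2, known from the nervous system, were at 2.13 and 1.10 CPM and at 1.44 and 1.31 CPM in the Ezh2Y646N libraries, against 0.190 and 0.0480 CPM and 0.190 and 0.144 CPM in the NrasQ61K libraries, in which each gene had 3 counts or fewer per library. Both passed the filter on low counts through the Ezh2Y646N libraries alone, so their direction was set by the filter, and neither passed the threshold (adjusted p = 0.133 and 0.163).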
